A study of Mus musculus with 18 samples.

Results

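The RNA bound to GFP-tagged astrocyte ribosomes (IP) was compared between the hippocampus of mice injected with kainic acid (KA), a glutamate receptor agonist that gives a model of mesial temporal lobe epilepsy, and of mice that received only the ribosome-tagging AAV (AAV control). The comparison used 6 of the 18 libraries of the series, KA IP #1 to #3 and AAV control IP #1 to #3. Of 55291 gene symbols, 9729 (17.6%) had an FPKM (the count scaled to gene length and library total) above 1 in all 6 libraries and were tested. All mice were male C57BL/6J mice, 6 weeks old at AAV injection, and all carried AAVDJ-GfaABC1D-EGFP-Rpl10a in the right CA3, in which the astrocytic GfaABC1D promoter drives an EGFP-tagged ribosomal protein. The KA group received 50 nL of 20 mM KA into the right dentate gyrus 2 weeks after the AAV, and its RNA was collected 14 days after KA. RNA of the AAV control group was collected 2 weeks after the AAV, with no second surgery, so the groups also differ in age at collection, in the time of tag expression and in surgery, and these cannot be told apart from KA. Each sample pooled the right hippocampi of 3 to 4 mice, which limits the replicates to 3 pools per group.

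Astrocytes take up glutamate and GABA, buffer potassium and water, supply neurons with glutamine, lactate and cholesterol, and are coupled to each other by gap junctions. After injury or seizures they become reactive, a state in which intermediate filaments accumulate and secreted inhibitors, chaperones and inflammatory receptors are induced. In translating ribosome affinity purification an antibody against the tag pulls down the ribosomes of the labelled cells together with the mRNA on them, and RNA of other cells is carried along in part. A value of the IP is therefore a share of the ribosome-bound pool, in which fewer cells of a type and less RNA per cell cannot be told apart.

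The 6 libraries held 9281256 to 12821143 counts. AAV control IP #3 stood apart from the other controls. On principal components of log2 CPM it scored −47.61 on the second component, on which AAV control IP #1 and #2 scored 16.38 and 17.32 and the KA libraries between −17 and 16.08. Run 1 held samples #1 and #2 of both groups, and run 2 held 1 sample per group, the samples #3. Results that rest on AAV control IP #3 are given with and without it.

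The label was checked against 20 astrocyte markers, all of which were tested. In the AAV control group their median ratio of IP to input (the homogenate before the pull-down) was 8.84, and in the KA group 3.07. None was at 0, and their summed level was 7801 to 9074 FPKM in KA IP and 8515 to 12610 FPKM in AAV control IP, so that the groups overlapped. These sums include Gfap, which rose and made up a large part of the KA sums (values below). The log2 fold change was negative for 17 of the 20 markers and positive for 3, with a median of −0.97. Of the 20, Gfap and Aqp4 rose and 8 fell. Gfap, the main intermediate filament protein of astrocytes, gave 3377, 3624 and 4051 FPKM in KA IP #1 to #3 and 622, 566 and 843 FPKM in AAV control IP #1 to #3, with no overlap (log2 fold change 2.49 ± 0.33, adjusted p = 0.00265). Sox9, a transcription factor of astrocytes, gave 60.3, 56.8 and 21.9 FPKM in KA against 84.3, 87.9 and 29.9 FPKM in AAV control and did not pass (log2 fold change −0.49 ± 0.43, adjusted p = 0.475, or −0.47 and 0.0273 with the replicate number as a block), with both samples #3 lower than the others. The count of fallen markers moved with single libraries, to 2, 1, 5, 2 and 4 without KA #1, KA #2, KA #3, AAV control #1 and AAV control #2 and to 11 without AAV control #3, and it was 15 with the replicate number as a block. Aqp4 lost its call without #1 or #2 of either group (adjusted p up to 0.0727). Gfap and Gja1 kept their calls with any library left out.

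Markers of other cell types moved as well. Summed pan-neuronal markers were 591.7 to 698 FPKM in KA IP and 249.1 to 276 FPKM in AAV control IP, and 9 of the 15 tested markers rose while none fell. Summed oligodendrocyte markers were 2701 to 5403 FPKM in KA IP against 496.6, 596.8 and 2067 FPKM in AAV control IP #1 to #3, and 8 of 21 rose. Without AAV control #3 all 21 tested oligodendrocyte markers rose, and without KA #1, KA #2, KA #3, AAV control #1 or AAV control #2 the count was 2, 2, 5, 2 or 1. Summed microglia and macrophage markers were 101.6 to 169.8 FPKM in KA IP and 38.62, 31.55 and 143.1 FPKM in AAV control IP, and 7 of 11 rose, with 3 rising without KA #1, AAV control #1 or AAV control #2 and 10 without AAV control #3. With the replicate block 14 oligodendrocyte markers rose. The median IP to input ratio of these microglial markers was 0.11 in AAV control and 0.03 in KA, that of neuronal markers 0.19 and 0.42, and that of oligodendrocyte markers 0.70 and 2.20. Of 9 tested interneuron markers 5 rose and 3 fell, of 8 tested granule cell markers 5 rose and 1 fell, and of 11 tested pyramidal cell markers 2 rose and 3 fell. The count of risen interneuron markers was 3, 2 and 2 without KA #2, AAV control #1 and AAV control #2, that of risen granule cell markers 3 without any library but KA #1 or AAV control #3, and that of fallen pyramidal cell markers 0 and 1 without KA #1 and KA #2. Of 10 tested markers of neural progenitors and immature neurons 2 rose and 3 fell, and of 8 tested endothelial and pericyte markers none rose and 2 fell, or 1 to 3 with 1 library left out. Of 5 tested fibroblast markers only Igfbp2 rose, whereas 3 rose without AAV control #3. Of 8 oligodendrocyte precursor markers 1 fell, and none of 9 ependymal or 2 choroid plexus markers passed. No marker of any of these lists was at 0 in all libraries of either group. The part of these cells in the results that follow was not tested.

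**Figure D1:**
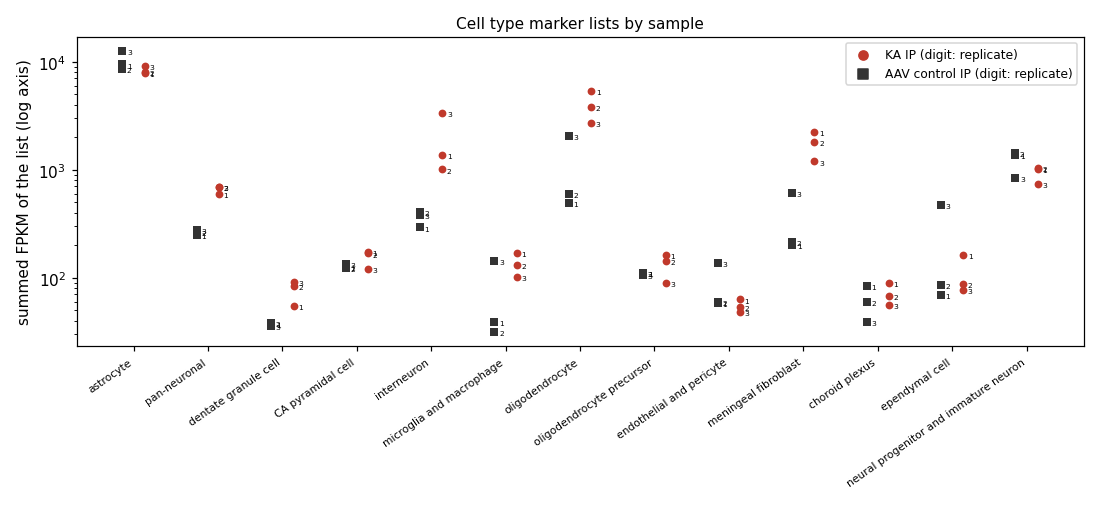
Summed FPKM (log axis) of the fixed marker lists of 13 cell types, with 1 point per library, circles for KA IP, squares for AAV control IP and the digit giving the replicate. Neuronal markers separate the groups (591.7 to 698 against 249.1 to 276 FPKM). The sums of astrocyte markers overlap, with Gfap, which rose, a large part of the KA sums. AAV control #3 lies above its group for oligodendrocyte, microglial, endothelial, fibroblast and ependymal markers.

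Across all genes tested, 1012 (10.4%) rose and 948 (9.74%) fell in KA IP at an adjusted p under 0.05 in edgeR's quasi-likelihood test, which is what rose and fell mean throughout. With a change of at least 2-fold, differentially expressed genes (DEGs) numbered 622 (6.39%) higher and 508 (5.22%) lower. For 3595 genes (37.0%) the FPKM values of the 3 KA and 3 AAV control samples did not overlap. The median log2 fold change of all tested genes was −0.02, against which the medians of the lists below can be read. Counts of a list can be read against the 10.4% and 9.74% of all tested genes. A list near these shares did not stand out by its counts. With the replicate number as a block, 1680 (17.3%) rose and 1676 (17.2%) fell, and without AAV control #3, 1699 (17.1%) rose and 1670 (16.8%) fell. Of the genes called, 431 of 1012 and 272 of 948 kept their call with any 1 library left out. Below, a range of a list's count is that over the 6 comparisons with 1 library left out, and its highest value was without AAV control #3 unless another library is named. Where a gene lost its call in one of these comparisons, its highest adjusted p over the 6 stands in brackets. Genes with a low IP to input ratio in AAV control tended to be higher in KA and those with a high ratio lower: the median log2 fold change was 0.54 over 1550 genes with a ratio under 0.5 and −0.67 over 589 genes with a ratio above 4. Both measures share the AAV control IP libraries, so this is a description only.

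**Figure D2:**
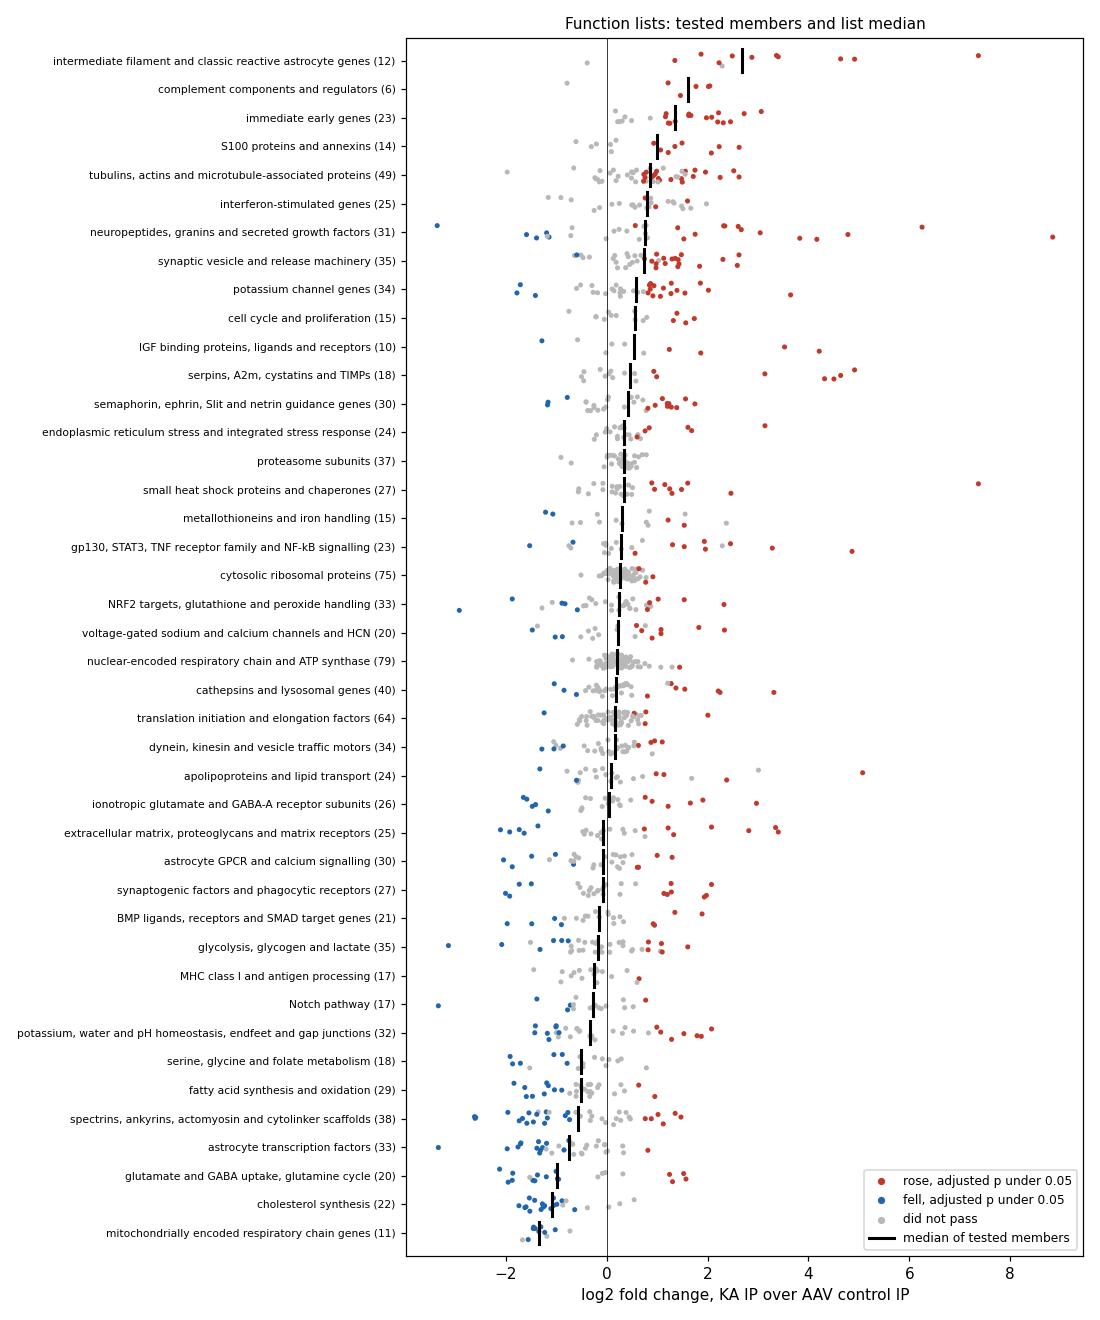
log2 fold change of KA IP over AAV control IP for every tested member of 42 function lists, ordered by the list median (black bar), with the number of tested members in brackets, red for genes that rose, blue for genes that fell and grey for genes that did not pass. The reactive astrocyte list lies at the top with a median of 2.69 and the mitochondrially encoded genes at the bottom with −1.34.

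The largest changes were taken among DEGs with a mean FPKM of at least 20 in the higher group and no overlap between groups. The largest increases were those of secreted peptides, protease inhibitors and stress proteins. Penk (chr4:4133531-4138819, minus strand of mm10), the precursor of the enkephalins, gave 2380, 1905 and 6297 FPKM in KA IP #1 to #3 and 10.96, 9.15 and 5.25 FPKM in AAV control IP #1 to #3. The fold change fitted by edgeR was 458 (log2 fold change 8.84 ± 0.73, adjusted p = 0.000432), and KA #3 was highest. Hspb1 (chr5:135887919-135889563, plus strand), a small heat shock protein, gave 443, 440.1 and 272 FPKM in KA against 3.03, 1.12 and 2.88 FPKM in AAV control (log2 fold change 7.37 ± 0.43, adjusted p = 0.000118). Scg2, a granin of secretory granules, gave 1030, 944 and 1538 FPKM in KA against 16.5, 18.1 and 14.4 FPKM in AAV control (log2 fold change 6.25 ± 0.36, adjusted p = 0.000117). Hpgd, which degrades prostaglandins, rose from 1.67 to 2.13 FPKM in the controls to 44.6 to 73.3 FPKM in KA (log2 fold change 5.07 ± 0.25, adjusted p = 7.46e-05). Tnfrsf12a, the receptor of the cytokine TWEAK, gave 71.4, 80.95 and 80.04 FPKM in KA against 1.79, 1.299 and 4.81 FPKM in AAV control, with AAV control #3 highest among the controls. Bdnf, a neurotrophin, gave 70.2, 62.05 and 87.2 FPKM in KA against 2.91, 2.91 and 2.57 FPKM in AAV control, and within each group the samples were close. Lgi2, a secreted leucine-rich protein, Rgs2, a regulator of G protein signalling, and Pcdh8, a protocadherin, had log2 fold changes of 4.79, 4.01 and 3.90. Npy, an interneuron peptide, was spread widely, with 1371, 3351 and 18675 counts in KA against 227, 336 and 892 counts in AAV control. Its log2 fold change of 4.17 ± 1.03 passed at an adjusted p of 0.0273, which became 0.0885 without AAV control #1 and 0.0930 without AAV control #2. The other 14 of the 15 largest increases kept their call with any library left out.

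The largest decreases under the same rule held a peptide, transcription regulators, spectrins and metabolic enzymes. Sst (chr16:23889573-23890958, minus strand), the somatostatin gene of interneurons, gave 16.8, 17.04 and 13.8 FPKM in KA IP #1 to #3 and 141, 212 and 154 FPKM in AAV control IP #1 to #3 (log2 fold change −3.36 ± 0.20, adjusted p = 0.000133), with no overlap. Hes5 (chr4:154960923-154962371, plus strand), a Notch target and transcriptional repressor, gave 3.29, 2.04 and 2.08 FPKM in KA against 32.2, 24.9 and 21.1 FPKM in AAV control (log2 fold change −3.33 ± 0.25, adjusted p = 0.000348). The long noncoding RNA Pantr1 gave 10.5, 9.97 and 18.7 FPKM in KA against 134, 136 and 138 FPKM in AAV control (log2 fold change −3.30 ± 0.34, adjusted p = 0.000956), the controls being almost equal and KA #3 the highest of its group. Mfge8, a secreted bridge between dying cells and phagocytes, gave 14.2, 17.98 and 16.8 FPKM in KA against 134, 114 and 186 FPKM in AAV control (log2 fold change −3.11 ± 0.29, adjusted p = 0.0006698). Gstm5, a glutathione S-transferase abundant in the controls, gave 322, 365 and 409 FPKM in KA against 3029, 2572 and 3031 FPKM in AAV control (log2 fold change −2.92 ± 0.27, adjusted p = 0.000543). Ppp1r1b, the phosphatase inhibitor DARPP-32, Nnat, neuronatin, and Slc25a18, a mitochondrial glutamate carrier, had log2 fold changes of −2.52, −2.46 and −2.14. The noncoding RNAs Gm36742 and 2900052N01Rik had −2.40 and −2.27, and Ppp1r9a, the actin-binding neurabin, and Btbd17 had −2.14 and −2.13. All 15 decreases chosen by this rule kept their call with any library left out.

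**Figure D3:**
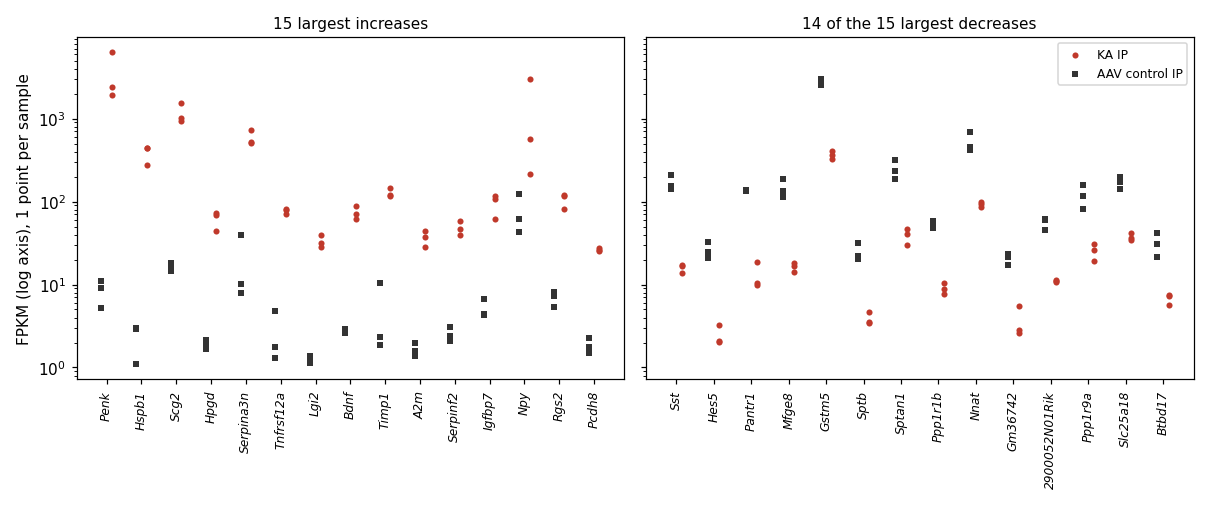
FPKM (log axis) of the 15 largest increases (left) and of 14 of the 15 largest decreases (right), 1 point per library, red circles for KA IP and black squares for AAV control IP. No gene shows overlap between groups, which was required of these genes together with a mean of at least 20 FPKM in the higher group. The KA values of Penk reach 6297 FPKM.

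Most of these genes had a high IP to input ratio. They were chosen for high IP values in the same group, so the ratios are a description only. Of the 15 increases, 10 had at least 2 times the FPKM in IP that they had in input in the KA group, whereas Bdnf, Lgi2, Npy and Pcdh8 lay between 1 and 2 times and Rgs2 below 1. Of the 15 decreases, 13 were enriched at least 2 times in the AAV control group, Nnat had a ratio of 1.15 and Sst of 0.134. In the AAV control group 933 of the 9729 tested genes had a ratio above 2 and up to 4, and 589 a ratio above 4. No such count over all tested genes was made for the KA group, so the increases have no share to be read against. The PBS group had the second surgery but was sequenced alone in run 3. Its 3 IP values lay on the AAV control side of all KA values for 14 of 15 increases, with Npy the exception. The same was seen for 15 of 15 decreases. The rule had required KA values apart from those of the AAV controls, which favours such counts. No count over all tested genes was made, so this is a description only. Exons of Penk, Bdnf, Igfbp7 and Pcdh8 among the increases and of Hes5, Gstm5, Sptb, Ppp1r1b, Slc25a18 and Nnat among the decreases overlap those of another annotated gene, and reads of that gene may be included, since the strand setting of the counting is not given. The same holds for 79 of the 272 genes named by the rule.

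Most tested genes of reactive astrocytes rose. Of 31 genes of the list, 12 were tested, 10 rose and none fell (median log2 fold change 2.69). The glycoprotein receptor Cd44 gave 31.9, 28.9 and 22.3 FPKM in KA IP #1 to #3 and 2.94, 3.15 and 2.08 FPKM in AAV control IP #1 to #3 (log2 fold change 3.40 ± 0.19, adjusted p = 0.000117). Vim, the intermediate filament vimentin, had a log2 fold change of 3.37 ± 0.29. Serpina3n (chr12:104406729-104414329, plus strand), a secreted serine protease inhibitor, gave 725, 511 and 521 FPKM in KA against 10.1, 8.01 and 39.3 FPKM in AAV control (log2 fold change 4.91 ± 0.70, adjusted p = 0.00359), and Timp1, an inhibitor of metalloproteases, gave 145, 119 and 117 FPKM in KA against 2.31, 1.88 and 10.6 FPKM in AAV control (log2 fold change 4.64 ± 0.64, adjusted p = 0.00312). In both genes AAV control #3 was several times above the other controls and still below every KA sample. Tm4sf1, Ptx3, Aspg and S100a10 rose by 2.88, 2.23, 1.87 and 1.35 on the log2 scale. Tm4sf1 (0.0527) lost its call without AAV control #2 and S100a10 (0.102) without each library but AAV control #3. Of the 10 risen members, 8 kept their call with any library left out.

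Inhibitors of secreted proteases formed a second group of increases. Of 18 tested serpins, cystatins, TIMPs and related inhibitors, 7 rose and none fell (median 0.46). Besides Serpina3n and Timp1 these were A2m, a broad protease trap, with 44.02, 37.2 and 27.98 FPKM in KA against 1.997, 1.37 and 1.58 FPKM in AAV control, Serpinf2, the plasmin inhibitor, with 58.3, 47.3 and 39.4 FPKM in KA against 3.06, 2.38 and 2.08 FPKM in AAV control, Serpinf1, Spint2 and Timp2. The controls stayed at 1.37 to 3.06 FPKM in both A2m and Serpinf2, and the KA samples at 28.0 to 58.3 FPKM. Cst3, the secreted cystatin that was the most abundant gene of KA IP #3, did not pass (log2 fold change −0.03 ± 0.35, adjusted p = 0.968). Spint2 (0.155) lost its call without each library but AAV control #3 and Timp2 (0.068) without #1 or #2 of either group.

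Complement genes were few in the tested set, with 6 of 23. Of these, 5 rose, namely the initiating subunits C1qa, C1qb and C1qc, C4b and the regulator Cd59a, by 2.04, 1.77, 1.22, 1.46 and 2.02. C4b gave 79.8, 60.8 and 43.4 FPKM in KA against 21.7, 18.5 and 27.4 FPKM in AAV control, and C1qa 21.9, 14.4 and 7.46 FPKM in KA against 3.42, 2.82 and 4.35 FPKM in AAV control. The C1q genes are markers of microglia, whose summed level moved with them as given above, and their part was not tested. The count was 3 without KA #1, KA #2, AAV control #1 or AAV control #2. C1qb (0.0598) lost its call without #1 or #2 of either group and C1qc (0.099) without each library but AAV control #3.

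Receptors and transcription factors of cytokine signalling rose in part. Of 23 tested genes of gp130, STAT3, TNF receptor and NF-kB signalling, 8 rose and 2 fell. Cebpd, an acute phase transcription factor, gave 103, 85.1 and 26.8 FPKM in KA against 9.04, 8.82 and 4.73 FPKM in AAV control (log2 fold change 3.28 ± 0.46, adjusted p = 0.00318), with both samples #3 lowest in their group. Cebpb, the alarmin Il33, the chemokine Cx3cl1, Tnfrsf1a and Stat3 rose by 1.96, 1.94, 1.54, 1.31 and 0.57. Cntfr, the receptor of ciliary neurotrophic factor, fell with 11.8, 10.5 and 9.805 FPKM in KA against 30.5, 26.8 and 37.5 FPKM in AAV control (log2 fold change −1.52 ± 0.21, adjusted p = 0.00281), and the kinase Jak2 fell by 0.66 on the log2 scale. Il33 (0.0603) and Stat3 (0.156) lost their call without #1 or #2 of either group and Jak2 (0.137) without each library but AAV control #3. With the replicate block 11 rose and 4 fell.

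Interferon-stimulated and MHC class I genes depended on AAV control #3. The summed interferon-stimulated genes were 1851, 1925 and 2404 FPKM in KA IP and 331.5, 287 and 2040 FPKM in AAV control IP #1 to #3. With all 6 libraries, 3 of 25 tested genes rose (Gbp3, Irf9 and Eif2ak2, median 0.80), and without AAV control #3, 23 rose (median 1.97). Without KA #1, KA #2, KA #3, AAV control #1 or AAV control #2 the count was 0, 0, 2, 0 or 1, and with the replicate block 11. MHC class I and antigen processing genes summed to 1444, 1355 and 1486 FPKM in KA IP and to 589.7, 524.8 and 4780 FPKM in AAV control IP. Of 17 tested, 1, Calr, an endoplasmic reticulum chaperone, rose (median −0.25), and without AAV control #3, 10 rose and 1 fell (median 0.85). Gbp3 (0.117), Irf9 (0.124) and Calr (0.159) lost their call without each library but AAV control #3 and Eif2ak2 (0.0584) without KA #1, KA #2 or AAV control #1. The input library of AAV control #3 also had the highest interferon sum of its group, 245.7 FPKM against 119.3 and 97.58 FPKM. The KA inputs had 689.1 to 756.5 FPKM.

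Chaperones and genes of the stress response of the endoplasmic reticulum rose in part. Of 27 tested heat shock genes 9 rose and none fell (median 0.34), among them Hspb6 with 44.1, 40.5 and 37.9 FPKM in KA against 5.54, 5.05 and 11.8 FPKM in AAV control (log2 fold change 2.46 ± 0.37, adjusted p = 0.00413), Hsph1 with 20.2, 22.5 and 18.3 FPKM in KA against 7.36, 8.13 and 5.44 FPKM in AAV control (log2 fold change 1.61 ± 0.17, adjusted p = 0.00103), and Cryab, Hspa8, Hsp90ab1 and Hsp90aa1 by 1.25, 1.15, 0.95 and 0.90. The count was 5, 4, 5 and 5 without KA #1, KA #2, AAV control #1 and AAV control #2, and Hspb1, Hspb6, Hsph1 and Dnajb5 kept their call throughout. Cryab (0.16) and Hsp90ab1 (0.153) lost their call without each library but AAV control #3, Hspa8 (0.081) without KA #2, AAV control #1 or AAV control #2, and Hsp90aa1 (0.109) without #1 or #2 of either group. Of 24 tested genes of endoplasmic reticulum stress 6 rose, among them Nupr1, a stress-induced nuclear protein, with 85.4, 91.5 and 116 FPKM in KA against 10.3, 10.9 and 13.3 FPKM in AAV control (log2 fold change 3.14 ± 0.26, adjusted p = 0.0004401), and Asns, the asparagine synthetase. Their count was 3 without KA #2 and 3 without AAV control #2.

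Of 33 tested antioxidant genes 5 rose and 5 fell, which is 15.15% each way beside 10.4% and 9.74% of all tested genes. Gpx1, a glutathione peroxidase, gave 519.6, 409.7 and 344 FPKM in KA against 86.5, 84.6 and 90.02 FPKM in AAV control (log2 fold change 2.33 ± 0.20, adjusted p = 0.000502), and Hmox1, the heme oxygenase, and Srxn1, a sulfiredoxin, also rose. Gstm5 and the cystine transporter Slc7a11 fell by 2.92 and 1.87 on the log2 scale. The ranges were 3 to 9 for genes that rose and 2 to 7 for genes that fell, and the replicate block gave 9 and 8. Of 15 tested genes of metallothioneins and iron handling, Hmox1 and Hfe rose and the transferrin receptor Tfrc and the zinc transporter Slc39a12 fell. This was 13.33% each way, and with the replicate block 7 rose and 4 fell. The ranges were 1 to 5 and 0 to 4. Hfe (0.0766) lost its call without KA #1, KA #3, AAV control #1 or AAV control #2, Tfrc (0.0584) without KA #1 or KA #2, and Slc39a12 (0.0625) without KA #2, AAV control #1 or AAV control #2. Of 14 S100 and annexin genes 8 rose (median 1.0), for example S100a11 with 192, 171 and 262 FPKM in KA against 18.1, 17.4 and 65.99 FPKM in AAV control, in which AAV control #3 stood above the other controls. None of these 8 kept its call with every library left out, and the count was 1, 2, 3, 0 and 1 without KA #1, KA #2, KA #3, AAV control #1 and AAV control #2.

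Matrix genes went both ways, with 7 of 25 tested rising and 5 falling. Bgn, the proteoglycan biglycan, gave 16.8, 19.8 and 22.2 FPKM in KA against 1.804, 1.63 and 2.51 FPKM in AAV control (log2 fold change 3.35 ± 0.28, adjusted p = 0.0004604), and Ccn1, a matricellular protein, gave 70.5, 55.02 and 35.1 FPKM in KA against 6.46, 7.04 and 9.47 FPKM in AAV control (log2 fold change 2.82 ± 0.28, adjusted p = 0.000882). In the opposite direction Bcan, the brain proteoglycan brevican, gave 56.05, 53.8 and 42.4 FPKM in KA against 247, 236 and 195 FPKM in AAV control (log2 fold change −2.10 ± 0.18, adjusted p = 0.000502), and Sparcl1, a secreted synaptogenic protein, gave 307, 396 and 325 FPKM in KA against 1348, 1262 and 1413 FPKM in AAV control (log2 fold change −1.92 ± 0.24, adjusted p = 0.00206). The related Sparc rose (log2 fold change 2.08 ± 0.48, adjusted p = 0.0204), although it kept its call in 1 of the 6 settings with a library left out, the highest adjusted p being 0.0808. The glypicans Gpc4 and Gpc5, which carry heparan sulfate, differed in direction, with log2 fold changes of 1.98 ± 0.19 and −1.73 ± 0.15. Mertk, a receptor for the engulfment of dying cells, fell (3.998, 4.07 and 1.85 FPKM in KA against 19.1, 15.9 and 6.53 FPKM in AAV control). Of 27 tested synaptogenic factors and phagocytic receptors 7 rose and 4 fell, with ranges of 4 to 7 for both. The count of risen matrix genes was 4 without KA #1, KA #2, AAV control #1 or AAV control #2.

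In the IGF system, 4 of 10 tested genes rose and 1 fell. Igfbp2 (chr1:72824503-72852474, plus strand), a secreted IGF binding protein, gave 1167, 903 and 702 FPKM in KA IP #1 to #3 and 103, 92.6 and 55.2 FPKM in AAV control IP #1 to #3. The groups did not overlap (log2 fold change 3.53 ± 0.29, adjusted p = 0.000414), and its IP to input ratio was 6.14 in KA and 2.55 in AAV control. Igfbp2 is also on the meningeal fibroblast marker list, of which no other tested member rose with all 6 libraries. Without AAV control #3, 3 of the 5 tested members rose. The whole list, Igfbp2 included, summed to 2231, 1821 and 1192 FPKM in KA IP #1 to #3. In AAV control IP #1 to #3 it summed to 201.2, 212.4 and 608.7 FPKM. The part of these cells was not tested. Igfbp7 gave 117, 107 and 60.97 FPKM in KA against 4.28, 4.41 and 6.65 FPKM in AAV control (log2 fold change 4.21 ± 0.31, adjusted p = 0.000348). Igfbp6 and Irs2, an adaptor of the insulin and IGF receptors, rose by 1.87 and 1.24, and Htra1, a protease that cleaves IGF binding proteins, fell (log2 fold change −1.28 ± 0.21, adjusted p = 0.00649). Igfbp6 (0.0648) lost its call without KA #2, AAV control #1 or AAV control #2.

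Genes of BMP signalling also went both ways. Of 21 tested BMP genes, the ligand Bmp6 (4.58, 3.62 and 3.27 FPKM in KA against 1.96, 1.31 and 1.38 FPKM in AAV control, log2 fold change 1.35 ± 0.22, adjusted p = 0.00594), the receptor Acvr1 and the inhibitors Smad7 and Bambi rose. The receptors Bmpr1a, Bmpr1b and Acvr2b and the target Id4 fell, Id4 with 64.9, 68.6 and 34.01 FPKM in KA against 292, 297 and 97.8 FPKM in AAV control, in which both samples #3 were lowest. Bmp6 alone of these 8 kept its call with any library left out. The count of fallen BMP genes was 0, 2, 0, 1 and 0 without KA #1, KA #2, KA #3, AAV control #1 and AAV control #2, and 8 without AAV control #3, and that of risen genes 1 without KA #2 and 2 without AAV control #1. Acvr1 (0.0613) lost its call without KA #2, Smad7 (0.0803) without KA #1, KA #2 or AAV control #1, Bambi (0.0749) without KA #2, KA #3, AAV control #1 or AAV control #2, Bmpr1a (0.11) and Bmpr1b (0.109) without each library but AAV control #3, Acvr2b (0.154) without KA #1, KA #3, AAV control #1 or AAV control #2, and Id4 (0.0533) without KA #1, KA #3 or AAV control #2. Of 17 tested Notch genes, Hes5, Hes1, Hes6 and Lfng fell and Dtx4 rose, and Hes5 kept its call throughout. The range of fallen Notch genes was 1 to 9, lowest without KA #2, AAV control #1 or AAV control #2, and the replicate block gave 7. Hes1 (0.0846) and Dtx4 (0.096) lost their call without #1 or #2 of either group, Hes6 (0.0909) without KA #2, KA #3, AAV control #1 or AAV control #2, and Lfng (0.096) without each library but AAV control #3.

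Transcription factors of astrocytes fell in part. Of 33 tested, 13 fell and 1, Nfix, rose (median −0.75), and with the replicate block 22 fell. Lhx2, a LIM homeodomain factor, gave 11.8, 12.3 and 7.43 FPKM in KA against 46.4, 43.7 and 21 FPKM in AAV control (log2 fold change −1.75 ± 0.28, adjusted p = 0.00574). Besides Hes5 and Id4, Emx2, Hopx, Rora, Gli3, Nr2f1, Sox2 and Sox8 fell by 1.70, 1.71, 1.35, 1.33, 1.31, 1.27 and 1.19 on the log2 scale. The count was 4, 5, 5, 5 and 4 without KA #1, KA #2, KA #3, AAV control #1 and AAV control #2 and 23 without AAV control #3. Hes5, Lhx2 and Rora kept their call in all of these. Nfix (0.0802) lost its call without #1 or #2 of either group, Id4 (0.0533) without KA #1, KA #3 or AAV control #2, Emx2 (0.0571) without KA #1 or KA #3, Hopx (0.0625), Gli3 (0.114), Nr2f1 (0.123) and Sox2 (0.129) without each library but AAV control #3, and Sox8 (0.0977) without KA #2, KA #3, AAV control #1 or AAV control #2.

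Genes of transmitter uptake mostly fell. Of 20 tested genes of glutamate and GABA uptake and of the glutamine cycle, 11 fell and 4 rose (median −0.99). Slc6a11, the GABA transporter GAT3, gave 10.1, 10.3 and 7.75 FPKM in KA against 40.5, 41.4 and 24.96 FPKM in AAV control (log2 fold change −1.86 ± 0.20, adjusted p = 0.00108). Glul, the glutamine synthetase, gave 203, 185 and 193 FPKM in KA against 716, 731 and 871 FPKM in AAV control (log2 fold change −1.95 ± 0.24, adjusted p = 0.00196). Neither overlapped between groups. Slc1a2, the glutamate transporter GLT-1, gave 448, 507 and 486 FPKM in KA against 1534, 1658 and 885 FPKM in AAV control (log2 fold change −1.42 ± 0.31, adjusted p = 0.0164). AAV control #3 was the lowest control, and the call was lost without KA #1, KA #2, AAV control #1 or AAV control #2, with adjusted p values of 0.0841, 0.0836, 0.0737 and 0.0673. Slc1a3, the transporter GLAST, fell by 1.19 on the log2 scale and Maob, a monoamine oxidase, by 1.37. The 4 that rose were the aspartate aminotransferases Got1 and Got2 and the GABA-synthesizing enzymes Gad1 and Gad2, the last of which are also interneuron markers. The count of risen genes was 2, 1 and 1 without KA #2, AAV control #1 and AAV control #2, and of the 4 Got1 alone kept its call with any library left out. Slc1a3 (0.0637) lost its call without #1 or #2 of either group, Got2 (0.0603) without AAV control #1 or AAV control #2, Gad1 (0.0725) without KA #2, AAV control #1 or AAV control #2, and Gad2 (0.0614) without KA #2, KA #3, AAV control #1 or AAV control #2. Of the 11 fallen genes, 6 kept their call with any library left out, and the count was 6 without KA #2.

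Genes of potassium, water and gap junction function split, with 7 of 32 rising and 7 falling. Aqp4, the water channel of the endfeet, gave 383, 379.7 and 293 FPKM in KA against 204, 174 and 170.3 FPKM in AAV control (log2 fold change 0.99 ± 0.21, adjusted p = 0.0145), and the sodium pump subunit Atp1b1 rose by 1.79. Gja1, connexin 43, gave 32.3, 31.6 and 23.2 FPKM in KA against 91.2, 88.9 and 62.7 FPKM in AAV control (log2 fold change −1.42 ± 0.20, adjusted p = 0.00325), and Gjb6, connexin 30, fell by 1.0. Aqp4 (0.0727) lost its call without #1 or #2 of either group and Gjb6 (0.0805) without KA #2, AAV control #1 or AAV control #2. The inward rectifiers differed, since Kcnj16 fell (4.88, 4.42 and 5.31 FPKM in KA against 13.04, 13.8 and 13.7 FPKM in AAV control, log2 fold change −1.41 ± 0.18, adjusted p = 0.00237) while Kcnj10, Kir4.1, gave 144, 132 and 104 FPKM in KA against 107, 108 and 58.96 FPKM in AAV control and did not pass (log2 fold change 0.53 ± 0.24, adjusted p = 0.157, or 0.56 and 0.0384 with the replicate block). With the block 8 rose and 13 fell, and the ranges were 3 to 8 and 3 to 12, lowest without AAV control #1 and KA #2. Of 30 tested receptors and calcium signalling genes, 4 rose and 5 fell, among them S1pr1, a sphingosine phosphate receptor (36.8, 36.9 and 35.5 FPKM in KA against 164, 148 and 155 FPKM in AAV control, log2 fold change −2.04 ± 0.18, adjusted p = 0.000497), and Grm3, a metabotropic glutamate receptor (10.6, 10.5 and 10.5 FPKM in KA against 44.99, 38.8 and 36.3 FPKM in AAV control, log2 fold change −1.87 ± 0.16, adjusted p = 0.000476). With the block 10 of these fell, and the ranges were 3 to 9 for genes that fell and 1 to 4 for genes that rose. Their shares of 13.33% risen and 16.67% fallen stand beside 10.4% and 9.74% of all tested genes.

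Genes of cholesterol synthesis fell at early, middle and sterol steps of the pathway. Of 22 tested genes, 16 fell and none rose (median −1.08), and 13 of the 16 fell by at least 2-fold. At its start, Hmgcs1, which makes HMG-CoA, gave 34.4, 33.6 and 21.5 FPKM in KA against 126, 137 and 49.3 FPKM in AAV control (log2 fold change −1.74 ± 0.34, adjusted p = 0.0126), with AAV control #3 the lowest control and still above the KA samples. Its call was lost without KA #2 (adjusted p = 0.0505). In the middle of the pathway, Idi1, the isopentenyl diphosphate isomerase, Mvd and Mvk fell by 1.52, 1.43 and 1.26. In the sterol steps, Cyp51 gave 12.8, 12.6 and 8.89 FPKM in KA against 40.6, 41.03 and 21.8 FPKM in AAV control (log2 fold change −1.53 ± 0.23, adjusted p = 0.00442) and Msmo1 10.9, 10.8 and 11.6 FPKM in KA against 33.1, 30.5 and 40.5 FPKM in AAV control (log2 fold change −1.60 ± 0.21, adjusted p = 0.00269). Srebf2, the regulator of the pathway, did not pass, with a log2 fold change of −0.38 ± 0.21. Of these 16 genes, 11 kept their call with any library left out, and in run 1 alone 19 fell.

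Of 29 tested fatty acid genes 9 fell and 2 rose (median −0.50), with a range of 0 to 3 for genes that rose, or 14 falling without AAV control #3 and 14 with the replicate block. The desaturases Fads1 and Fads2 gave 36.8, 38.7 and 32.02 FPKM in KA against 129, 121 and 94.5 FPKM in AAV control and 100.5, 95.9 and 87.1 FPKM in KA against 274, 278 and 262 FPKM in AAV control, and the elongase Elovl2 fell by 1.83. The lipid transport list, with 24 tested genes, also holds Hpgd, which degrades prostaglandins and is no transport gene. Of the 24, 4 rose, namely Hpgd, the fatty acid binding protein Fabp3 and the cholesterol exporters Abca1 and Abcg1 (1.14 and 0.98). Fabp3 gave 80.9, 74.2 and 98.8 FPKM in KA against 16.2, 17.03 and 17.6 FPKM in AAV control. Lcat, the cholesterol esterifying enzyme, and Npc1 fell. These shares of 16.67% risen and 8.333% fallen stand beside 10.4% and 9.74% of all tested genes. The ranges of this list were 3 to 8 for genes that rose and 0 to 3 for genes that fell, with none falling without KA #1, KA #2 or AAV control #1. Abcg1 (0.102) lost its call without #1 or #2 of either group, Lcat (0.129) without KA #1, KA #2, KA #3 or AAV control #1, and Npc1 (0.126) without each library but AAV control #3.

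**Figure D4:**
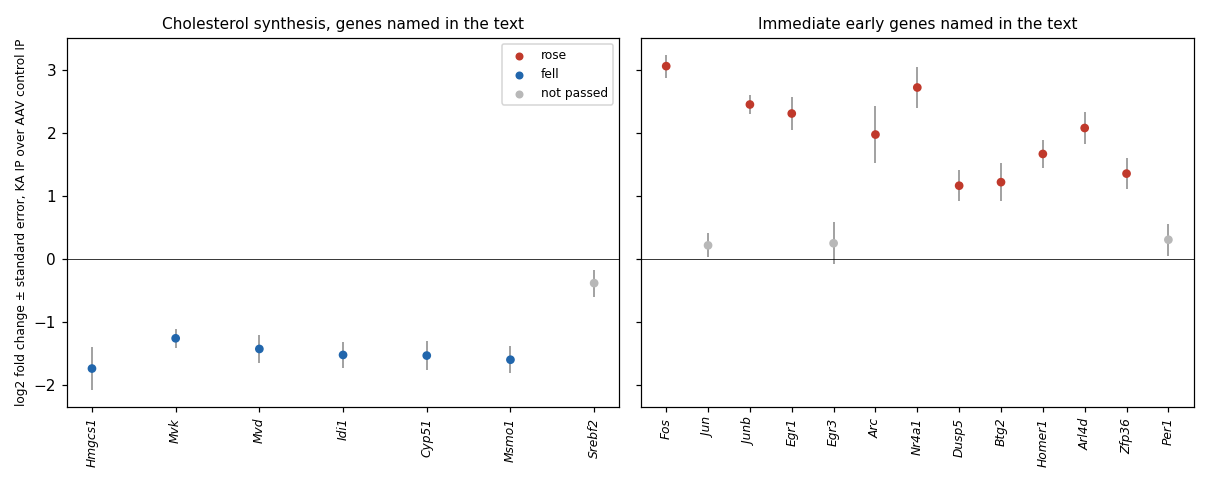
log2 fold change of KA IP over AAV control IP with its standard error for the 7 genes of cholesterol synthesis (left) and the 13 immediate early genes (right) that are named in the text, red for genes that rose, blue for genes that fell and grey for genes that did not pass. All cholesterol genes shown but Srebf2 fell, and all immediate early genes shown but Jun, Egr3 and Per1 rose, while of all tested genes of the lists 16 of 22 fell and 16 of 23 rose.

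Of 35 tested genes of glycolysis, glycogen and lactate, 6 fell, 5 rose and 24 did not pass. Ppp1r3g, a glycogen-targeting phosphatase subunit, gave 2.20, 2.57 and 1.25 FPKM in KA against 23.8, 22.1 and 9.56 FPKM in AAV control (log2 fold change −3.13 ± 0.36, adjusted p = 0.00144). The glycogen phosphorylases Pygm and Pygb gave 3.49, 3.401 and 2.61 FPKM in KA against 14.6, 14.4 and 12.5 FPKM in AAV control and 29.6, 27.7 and 25.4 FPKM in KA against 83.8, 76.2 and 55.6 FPKM in AAV control, and the glycogen synthase Gys1 fell by 0.89. Eno2, Pgk1, Pgam1, the regulator Pfkfb3 and the lactate transporter Slc16a1 rose by 1.61, 0.82, 0.83, 1.09 and 1.10. Eno2 is also a neuronal marker. The ranges were 3 to 10 for genes that fell and 3 to 9 for genes that rose, and the replicate block gave 13 and 9. Of the 11, Ppp1r3g, Pygm, Pygb, Eno2, Pfkfb3 and Slc16a1 kept their call with any library left out. Gys1 (0.0766) and Pgk1 (0.0708) lost their call without #1 or #2 of either group and Pgam1 (0.16) without each library but AAV control #3.

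Serine and glycine metabolism fell in 6 of 18 tested genes and rose in none. Phgdh, the first enzyme of serine synthesis, gave 45.99, 45.5 and 38.97 FPKM in KA against 169, 125 and 208 FPKM in AAV control (log2 fold change −1.91 ± 0.25, adjusted p = 0.00265), and Gldc, of glycine cleavage, gave 5.54, 5.801 and 3.98 FPKM in KA against 24.2, 22.4 and 11.8 FPKM in AAV control (log2 fold change −1.86 ± 0.25, adjusted p = 0.002703). Cbs, the cystathionine synthase, fell by 1.71. The count was 3 without KA #2 and 10 with the replicate block.

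Mitochondrially encoded genes fell, whereas nuclear genes of the respiratory chain mostly did not pass. Of 79 tested nuclear-encoded subunits, 1 rose (Atp5g1) and none fell (median 0.22), and with the replicate block 7 rose (range 0 to 5). Atp5g1 (0.0981) lost its call without KA #2, KA #3, AAV control #1 or AAV control #2. Of 11 tested mitochondrially encoded genes, 8 fell and none rose (median −1.34). For example, mt-Cytb gave 2012, 1815 and 969 FPKM in KA against 4136, 2847 and 6172 FPKM in AAV control. KA #3 was the lowest and AAV control #3 the highest. mt-Cytb (0.11) lost its call without KA #1, KA #2, KA #3 or AAV control #1. Mitochondrial transcripts took 0.5503% to 1.35% of the counts in KA IP and 2.198% to 2.658% in AAV control IP. Their median IP to input ratio was 0.26 in AAV control and 0.09 in KA, so they were depleted in both groups. The count of fallen genes was 2, 2, 3 and 2 without KA #1, KA #2, KA #3 and AAV control #1, and 5 with the gene length offset.

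Few genes of protein synthesis and turnover passed. Of 75 tested cytosolic ribosomal proteins 4 rose and none fell (median 0.27), and 16 rose with the replicate block (range 0 to 9, lowest without AAV control #1 or AAV control #2). Rpl10a, whose tagged copy is the AAV product, gave 343, 231 and 196 FPKM in KA against 244, 239 and 319.8 FPKM in AAV control (log2 fold change −0.04 ± 0.26). Of 64 translation factors 4 rose and 1 fell, and 12 rose and 4 fell with the block (range 0 to 9 for genes that rose, lowest without AAV control #1). None of 37 proteasome subunits passed in edgeR (median 0.34, 5 higher at an unadjusted p under 0.05), while DESeq2 gave 4 risen, limma-voom 0, the replicate block 14 and the comparison without AAV control #3 gave 18. Of 40 lysosomal genes 7 rose and 3 fell. Ctsd, a cathepsin, gave 860.4, 797 and 718 FPKM in KA against 77.8, 71.1 and 96.2 FPKM in AAV control (log2 fold change 3.31 ± 0.25, adjusted p = 0.000348), and the tetraspanin Cd9 gave 1359, 1241 and 842 FPKM in KA against 219, 220.3 and 297 FPKM in AAV control (log2 fold change 2.25 ± 0.27, adjusted p = 0.00194). Ctss, which is also a microglial marker, rose by 2.21. Without AAV control #3, 14 lysosomal genes rose, and without KA #1, AAV control #1 or AAV control #2, 4 rose. The range of fallen lysosomal genes was 0 to 3, with none without KA #1 or KA #2. Ctss (0.0635) lost its call without #1 or #2 of either group.

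Of 38 tested spectrins, ankyrins, myosins and cytolinkers, 16 fell and 6 rose (median −0.56). The spectrins Sptan1, Sptb and Sptbn1, which form the membrane skeleton, fell by 2.60, 2.62 and 1.96, and Sptan1 gave 30.1, 40.8 and 47.2 FPKM in KA against 188, 235 and 321 FPKM in AAV control (log2 fold change −2.60 ± 0.35, adjusted p = 0.00282). Plec, Macf1, Dst, Ank2 and Ank3 also fell. Of the 16 fallen genes, 9 kept their call with any library left out, and the count was 9, 9 and 10 without KA #1, KA #2 and KA #3. The count of risen genes was 2 without KA #1, KA #2, AAV control #1 or AAV control #2 and 3 without KA #3. Dst (0.11) and Ank3 (0.0663) lost their call without each library but AAV control #3. Many of these genes are long, and in the quintile of the longest tested genes (median length 9626 bases) the median log2 fold change was −0.20. With gene length as an offset 11 scaffold genes fell and 6 rose.

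Of 49 tested tubulins, actins and microtubule-associated proteins 21 rose and none fell (median 0.86). Stmn3 and Stmn4, stathmins that destabilize microtubules, gave 1145, 1127 and 1196 FPKM in KA against 221, 225 and 146 FPKM in AAV control (log2 fold change 2.62 ± 0.23, adjusted p = 0.000497) and 277, 228 and 144 FPKM in KA against 25.7, 35.97 and 51.9 FPKM in AAV control (log2 fold change 2.52 ± 0.35, adjusted p = 0.00298). Tmsb4x, thymosin beta 4, gave 3775, 3926 and 3488 FPKM in KA against 745, 836 and 852 FPKM in AAV control (log2 fold change 2.25 ± 0.24, adjusted p = 0.00103). Arpc1b, of the actin-branching complex, Fscn1, an actin bundler, and Gap43, a growth cone protein, rose by 1.96, 1.48 and 1.05. Nefl and Nefm, neurofilaments on the neuronal marker list, rose by 1.56 and 1.5. The count was 11, 11 and 12 without KA #2, AAV control #1 and AAV control #2, 33 without AAV control #3 and 34 with the replicate block. Of 30 tested guidance genes 10 rose and 3 fell, with Plxna4 (log2 fold change 1.56 ± 0.18, adjusted p = 0.00146) and Slit3 (log2 fold change −1.16 ± 0.23, adjusted p = 0.0122) as examples. Their count of risen genes was 6, 5, 6 and 6 without KA #1, KA #2, AAV control #1 and AAV control #2, and that of fallen genes 0, 1, 1 and 1. Slit3 (0.0571) lost its call without KA #1. Of 34 motors and traffic genes 4 rose and 3 fell, and of 15 tested cell cycle genes 4 rose, among them Ccnd1 and Gadd45b. Without KA #1, KA #2, AAV control #1 and AAV control #2 the count of risen traffic genes was 2, 1, 1 and 1, and without KA #1 that of fallen ones was 1. The replicate block gave 7 and 6 for motors and traffic genes and 8 risen cell cycle genes.

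Of 31 tested genes of neuropeptides and secreted growth factors 14 rose and 5 fell (median 0.77). Vgf, Pdyn, the dynorphin precursor, Inhba, an activin subunit, Chga and Chgb rose by 3.83, 2.67, 2.61, 2.34 and 2.32. Cck, cholecystokinin, gave 1054, 354 and 288 FPKM in KA against 64.6, 80.1 and 64.4 FPKM in AAV control (log2 fold change 3.04 ± 0.47, adjusted p = 0.00471), with KA #1 highest. Besides Sst, the growth factors Ptn and Fgf1 and the peptide-processing enzyme Cpe fell, Cpe with 2951, 3305 and 3489 FPKM in KA against 9029, 8500 and 9051 FPKM in AAV control. Cpe (0.0832) lost its call without #1 or #2 of either group. The count of fallen genes was 3 without KA #1, KA #2 or AAV control #2. Of the 14 that rose, 12 kept their call with any library left out. The pan-neuronal marker sum rose beside these genes, from 249.1 to 276 FPKM to 591.7 to 698 FPKM, and its part was not tested.

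Synaptic and channel genes rose in part. Of 35 tested genes of synaptic vesicles and release 17 rose and 1 fell (median 0.75). Nrgn, a postsynaptic calmodulin-binding protein of excitatory neurons, gave 1154, 1510 and 1953 FPKM in KA against 311, 307 and 183 FPKM in AAV control (log2 fold change 2.62 ± 0.32, adjusted p = 0.00199), and Rab3a, a vesicle GTPase, gave 221, 204 and 306 FPKM in KA against 37.1, 34.95 and 54.1 FPKM in AAV control (log2 fold change 2.59 ± 0.32, adjusted p = 0.00205). The median IP to input ratio of this list was 0.20 in AAV control and 0.48 in KA. The count was 11, 10 and 11 without KA #2, AAV control #1 and AAV control #2. Of 34 tested potassium channel genes 15 rose and 3 fell, and Kcne1l, an accessory subunit, gave 487, 460.4 and 388 FPKM in KA against 36.2, 35.1 and 38.5 FPKM in AAV control (log2 fold change 3.65 ± 0.20, adjusted p = 9.59e-05). Kcne1l had an IP to input ratio of 7.55 in KA and 11.1 in AAV control, whereas the list had medians of 0.67 and 0.37. Kcnk2 and Kcnn2 fell by 1.78 and 1.71, and the count of risen channels was 9, 8 and 9 without KA #2, AAV control #1 and AAV control #2. Of 20 sodium and calcium channel genes 7 rose (range 3 to 8) and 3 fell (range 1 to 4, highest without KA #3). Of 26 tested receptor subunits 6 rose and 5 fell, among them Grin2c, an NMDA receptor subunit (7.56, 8.196 and 4.999 FPKM in KA against 25.2, 23.5 and 9.19 FPKM in AAV control, log2 fold change −1.41 ± 0.33, adjusted p = 0.0223), which fell. Grin2c (0.0804) lost its call without each library but AAV control #3. The count of risen subunits was 3 without KA #2 or AAV control #1, and that of fallen ones 3 without KA #1, KA #2, KA #3 or AAV control #2.

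Immediate early genes rose in the IP at 14 days after KA. Of 36 genes 23 were tested, 16 rose and none fell (median 1.36). Fos gave 42.01, 35.1 and 40.4 FPKM in KA IP #1 to #3 and 5.64, 4.802 and 4.25 FPKM in AAV control IP #1 to #3 (log2 fold change 3.06 ± 0.18, adjusted p = 0.000133). Nr4a1, an orphan nuclear receptor, and Egr1, a zinc finger factor, gave 8.73, 8.81 and 14.6 FPKM in KA against 1.38, 1.94 and 1.78 FPKM in AAV control (log2 fold change 2.73 ± 0.32, adjusted p = 0.00167) and 16.1, 17.2 and 22.3 FPKM in KA against 4.74, 4.43 and 2.75 FPKM in AAV control (log2 fold change 2.31 ± 0.25, adjusted p = 0.00124). The Fos partner Junb, Arc and Homer1 rose by 2.46, 1.98 and 1.67, and Jun, Egr3 and Per1 did not pass. Arc (0.0712) lost its call without AAV control #1 or AAV control #2. The list's median IP to input ratio was 0.55 in AAV control and 1.01 in KA. Of the 16 risen genes, 11 kept their call with any library left out.

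Promoters of 2 lists that moved together were searched for the known elements of their regulators, on both strands of the 250 bases before the start of transcription (RefSeq, GRCm38.p6). Of 16 fallen cholesterol genes, 13 had a promoter in the reference set. Of these 1, Hmgcs1, held the sterol regulatory element TCACNCCAC. It occurred in 1.05% of 32851 promoters, and 1.29% of the 7531 tested genes with a promoter held it at least once. Of 16 risen immediate early genes, 13 had a promoter. Arl4d and Btg2 held the cAMP response element TGACGTCA, as did 1 of 5 members that were not called. It occurred in 1.55% of all promoters, and 3.29% of the 7531 tested genes held it in at least 1 promoter. Dusp5 and Zfp36 held the CArG box of serum response factor (1.47% of promoters and 1.38% of tested genes). Btg2 (0.0981) lost its call without KA #3, AAV control #1 or AAV control #2 and Dusp5 (0.0686) without KA #2 or AAV control #1. One promoter per element is shown, chosen after these values were seen, with the match in capitals. The Hmgcs1 window is chr13:119690101-119690350 on the plus strand, the Arl4d window chr11:101665291-101665540 on the plus strand and the Dusp5 window chr19:53528895-53529144 on the plus strand.
Hmgcs1: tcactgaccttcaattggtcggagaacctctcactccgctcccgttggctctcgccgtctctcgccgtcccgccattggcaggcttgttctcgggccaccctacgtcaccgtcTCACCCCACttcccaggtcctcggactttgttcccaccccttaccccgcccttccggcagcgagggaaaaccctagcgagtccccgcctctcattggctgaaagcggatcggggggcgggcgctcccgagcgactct
Arl4d: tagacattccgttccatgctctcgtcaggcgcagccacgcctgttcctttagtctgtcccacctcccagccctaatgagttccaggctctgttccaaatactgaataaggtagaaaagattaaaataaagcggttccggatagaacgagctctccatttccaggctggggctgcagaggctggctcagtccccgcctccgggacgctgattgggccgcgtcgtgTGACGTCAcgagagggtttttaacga
Dusp5: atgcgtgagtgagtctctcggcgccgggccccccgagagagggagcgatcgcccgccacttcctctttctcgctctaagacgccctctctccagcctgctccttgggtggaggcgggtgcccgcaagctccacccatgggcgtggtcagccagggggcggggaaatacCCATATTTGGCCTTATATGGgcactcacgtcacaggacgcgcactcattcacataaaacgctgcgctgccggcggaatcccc
The matches lie 137 bases before the start in Hmgcs1, 26 bases in Arl4d and 82 and 72 bases in Dusp5. A match describes these letters in the window and is no evidence of binding.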

How the data were processed

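RNA of IP libraries from pooled right hippocampi was compared between the KA and AAV control groups (3 samples each, biological replicates per the labels). The authors prepared libraries with the NEBNext Ultra II RNA kit, sequenced them on an Illumina NovaSeq and aligned reads to mm10 with STAR. The submitters' processing notes also name featureCounts and edgeR. Tool versions, annotation release and strand setting are not given in the sources used here. Per gene symbol the authors deposited counts, whole numbers without normalization, and FPKM, the count divided by library total and gene length. For 31628 of the 31675 symbols with a count in these libraries the deposited FPKM followed from the count and 1 length per gene within 1%.

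Counts of genes with FPKM above 1 in all 6 libraries were tested with edgeR 4.0.16 in R 4.3.3 (TMM, quasi-likelihood test, no covariate), with Benjamini-Hochberg adjustment over 9729 genes. Standard errors of log2 fold changes were derived from the F statistic. Exact permutation of 3 against 3 samples cannot go below 0.1 (two-sided). Alternatives were RLE factors, library totals, DESeq2 1.42.0, limma-voom (limma 3.58.1), other filters, sequencing run, run 1 only, a gene length offset, the replicate block and each library left out. In data simulated from these libraries, edgeR recovered 94% of genes changed by 2 and 26% of those changed by 1 on the log2 scale. There were 6 false calls. The simulation changed 200 of 9729 genes, and its libraries varied independently, without a run difference. The 42 function and 13 marker lists, the members and the rules were chosen with earlier results of these data known. Named genes were, per direction, the 15 largest changes among DEGs with a mean FPKM of at least 20 in the higher group and no overlap, up to 4 called members per list and direction (or the 2 most abundant members where none passed), the astrocyte markers, Igfbp2, Kcne1l, Bmp6 and Rpl10a. Some genes that the rule names are not reported here. Other genes named in a list were chosen after their values were seen. A list is described by its counts and median, and no set was tested. Of the symbols, 53292 matched GENCODE M21 on GRCm38, and of 272 named genes 79 overlap exons of another gene. Replicates #1 and #2 were in run 1 and #3 in run 2. Residual correlations of same-numbered KA and AAV control libraries were 0.3121, 0.5064 and 0.5187. The other pairs within run 1 had 0.1887 and 0.3833, and pairs across the runs −0.5131 to −0.2859. Within run 1 the same-numbered pairs were thus not uniformly higher, and pairing by number is not shown. The replicate block includes the run difference. It is given where it changes the call of a gene described or moves a count by over 1.5 times. Library totals were 9281256 to 12821143 counts, at which a count of 0 allows up to 3 counts. Of the list entries, 1335 were tested, 544 had FPKM of 1 or lower in at least 1 library, 11 had no count and 5 matched no symbol.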

Additional observations from a re-analysis of the deposited data

How the results depend on the processing

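No called gene named by the rule changed direction under any of the 17 alternatives. DEGs numbered 622 higher and 508 lower. Without a filter on low values (31675 genes) these were 1588 and 1235, and with filterByExpr (15312 genes) 1231 and 890, both testing more genes. Leaving out 1 library gave 461 to 875 higher and 302 to 621 lower DEGs. At any fold, 1012 genes rose and 948 fell. Genes that rose numbered 2157 without a filter, 1688 with filterByExpr, 1951 with sequencing run as a term, 2486 in run 1 alone, 1680 with the replicate block, 1722 with the replicate block and the gene length offset, and 505 to 1699 with 1 library left out. Genes that fell numbered 1776 without a filter, 1963 with the run term, 2337 in run 1 alone, 1676 with the replicate block, 1584 with the block and the length offset, and 338 to 1670 with 1 library left out, the highest counts without AAV control #3. The cause of the other shifts was not tested. RLE factors, library totals, DESeq2, limma-voom and the length offset kept all 4 counts within 1.5 times. The replicate block lost no call of a named gene and added 11. With it 8 neuropeptide and growth factor genes, 3 synaptic vesicle genes, 4 endothelial markers, 2 chaperones, 2 IGF genes, 1 S100 or annexin gene and 1 cell cycle gene fell, and 2 MHC class I genes, 2 Notch genes, 1 oligodendrocyte precursor marker and 1 choroid plexus marker rose. Other list counts moved by at most 1.5 times with the block, beyond those given with the results. With 3 pools per group, changes near 2-fold were often missed in the simulated data. There 200 of 9729 genes changed, far fewer than the 1012 and 948 called here, so the rate may differ in these data. In 28 cases a list had no called gene in a direction in edgeR. At an unadjusted p under 0.05 the count was 0 in 21 of these, and it was 0 in 23 with DESeq2 and in 27 with limma-voom.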

Other observations

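Where a gene lost its call with 1 library left out, its highest adjusted p stands in brackets. Several single markers of the same cell type went in opposite directions. Among interneuron markers Pvalb, parvalbumin, gave 58.8, 28.8 and 30.9 FPKM in KA against 13.1, 15.6 and 12.7 FPKM in AAV control (log2 fold change 1.56 ± 0.28, adjusted p = 0.00783), whereas Calb2, calretinin, gave 2.16, 2.59 and 2.67 FPKM in KA against 6.43, 6.84 and 6.94 FPKM in AAV control (log2 fold change −1.39 ± 0.22, adjusted p = 0.00515) and Sst fell. Among pyramidal cell markers Bok gave 64.7, 62.7 and 46.1 FPKM in KA against 12.6, 16.4 and 14.7 FPKM in AAV control (log2 fold change 2.03 ± 0.18, adjusted p = 0.000527), while Spink8 and Neurod6 fell by 2.75 and 1.66 on the log2 scale. Spink8 (0.0528) and Neurod6 (0.0631) lost their call without KA #1 or KA #2. Among granule cell markers Prox1 rose by 1.68, C1ql2 by 2.0 and Ahcyl2 fell by 0.68. C1ql2 (0.0903) lost its call without KA #2, KA #3, AAV control #1 or AAV control #2 and Ahcyl2 (0.101) without each library but AAV control #3. Of genes of immature cells, Neurod1 gave 10.4, 10.4 and 8.06 FPKM in KA against 3.36, 2.61 and 1.86 FPKM in AAV control (log2 fold change 1.95 ± 0.21, adjusted p = 0.00124).

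The ependymal genes Tmem212 and Dynlrb2 gave 177 and 97.0 FPKM in AAV control IP #3 against 14.01 to 17.09 FPKM in the other controls, and summed ependymal markers were 474.6 FPKM there against 69.91 and 86.22 FPKM. In PBS IP #3 this sum was 362.8 FPKM against 67.51 and 26.48 FPKM in PBS IP #1 and #2. Among the 6 libraries compared, the Y-linked Eif2s3y had its highest level in AAV control IP #3 (7.83, 9.35 and 9.71 FPKM in KA against 14.5, 19.6 and 30.8 FPKM in AAV control). The PBS libraries had 14.7, 22.4 and 44.2 FPKM, with PBS IP #3 highest. Eif2s3y (0.121) lost its call without KA #1, KA #2, KA #3 or AAV control #2.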
